A study of Danio rerio with 15 samples.

Results

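The ordinary change in transcript levels over the second day of zebrafish development was read from the buffer-injected control embryos of a study of *esco2* depletion. 7 of the 15 arrays of the series hold control RNA, and all 7 entered the comparison: 3 arrays of control embryos at 48 hpf (replicates 1, 3 and 4) and 4 arrays of control embryos at 24 hpf (replicates 1 to 4). Each array was hybridised with RNA from 1 pool of 50 dechorionated whole wild-type embryos that had received buffer alone at the 1-cell stage. The array of the second 48 hpf control pool is described as faulty and was not analysed here. The other 8 arrays, 4 of *esco2* morphants at 48 hpf and 4 at 24 hpf, are from wild-type embryos injected at the same stage with a morpholino against *esco2*, and they served for the shared estimate of the spread and for a closing comparison. All control embryos had been injected, neither uninjected embryos nor embryos with an unrelated morpholino are among the samples, and pools say nothing of differences between single embryos.

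At 24 hpf a zebrafish embryo has formed nearly all of its somites, its heart has begun to beat and its muscle to twitch, and most of its brain and retina still consists of dividing progenitors. Over the next day neurons and retinal cells become postmitotic, fast muscle fibres mature, the lens fills with crystallins, the fin folds gain their supporting fibrils and pharyngeal cartilage begins to form, while the tailbud and its segmentation genes fall silent. Liver, exocrine pancreas and cone photoreceptors become functional only later, near and after hatching.

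Values are log2 RMA intensities, in which 1 unit is a 2-fold difference, and a probe set was called higher or lower where it both differed 2-fold or more and had an adjusted p no larger than 0.05. RMA gives every array the same distribution of probe values, so each difference is relative to the other transcripts of the embryo and not an amount per embryo. The mean correlation of an array with the others of its group was 0.985 for replicate 3 at 48 hpf, 0.989 and 0.992 for replicates 4 and 1 there, and 0.997 to 0.998 within the 24 hpf group. Replicate 3 at 48 hpf stood apart: 273 probe sets lay more than 1 log2 unit below the mean of replicates 1 and 4 there and 1 lay as far above it. The median over 23 control probe sets with no zebrafish target was 4.14, 4.63 and 4.12 in the 48 hpf replicates 1, 3 and 4, against 3.80 to 4.14 on the 24 hpf arrays, and 95% of these values lay below 5.59. Where every array of a group lay below that level the gene is said to lie within the background range there, its log2 difference is printed as measured, and its fold is given as at least that of the brighter group over this level. The 3′ minus 5′ difference of the *acta1* control probe sets, a sign of RNA length, was 1.42 to 1.56 on the 48 hpf arrays and 2.34 to 2.49 on the 24 hpf arrays, and that of *GAPDH* was 0.87 to 1.15 at 48 hpf and 1.13 to 1.28 at 24 hpf. The part of these array differences in the results was not tested. Several results that turn on replicate 3 are given with and without it.

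Of 15502 probe sets tested, 635 (4.10%) were higher and 518 (3.34%) lower at 48 hpf than at 24 hpf. The groups did not overlap in 633 of the higher and 517 of the lower probe sets, where over all probe sets 21.3% had every 48 hpf array above every 24 hpf array and 24.4% had every 48 hpf array below. Without a minimum fold, 45.9% of the probe sets passed the test. Without replicate 3 at 48 hpf, 676 probe sets were higher and 419 lower, of which 602 and 393 were also called with it. Scaling the arrays to ribosomal protein genes instead moved the median difference of all probe sets by 0.15 and turned the split into 812 higher and 323 lower, so that 71.5% of the called probe sets were higher in place of 55.1%, while a test against a fold of 2 itself left 369 higher and 167 lower (68.8% higher).

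**Figure D1:**
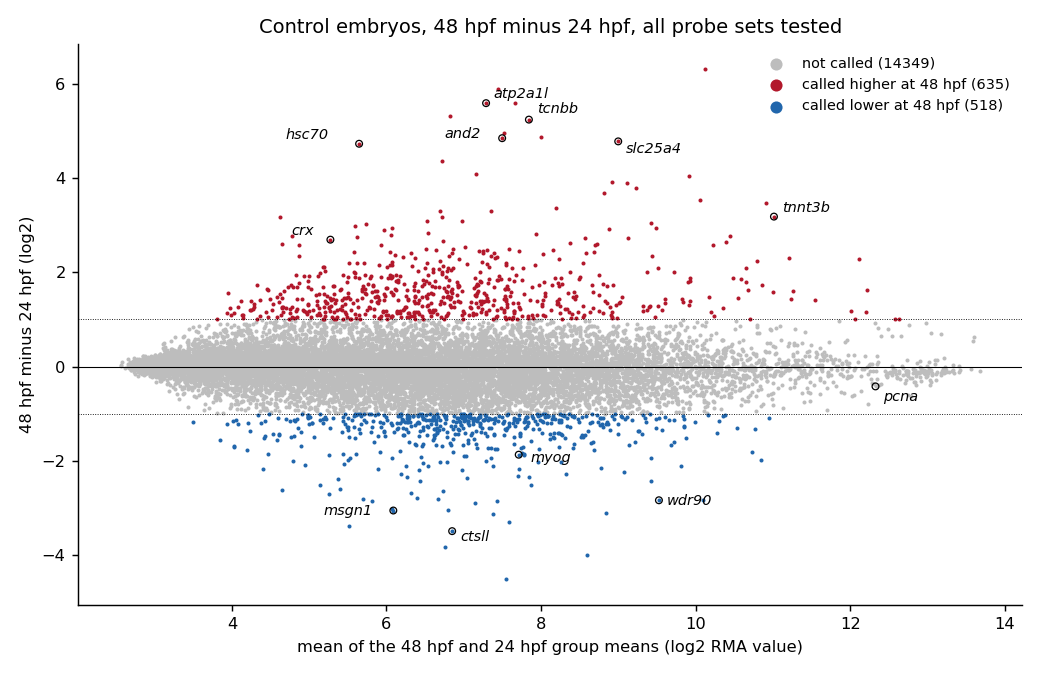
Difference between the control groups (48 hpf minus 24 hpf, log2) of every probe set tested against its mean level (log2 RMA value), with 635 called higher in red and 518 called lower in blue. The rises reach further from 0 than the falls, and among the circled genes they run up to 5.60 for *atp2a1l* against -3.50 for *ctsll*, in both of which the dimmer group lies within the background range.

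Among 8793 genes with a symbol, each represented by its brightest probe set, 405 (4.61%) were higher and 336 (3.82%) lower, and the median difference was -0.01. These percentages are the background for every list below. By adjusted p alone 21.9% of these genes were higher and 30.3% lower, which is the background for counts without a minimum fold. The rises were the larger changes: 21 genes rose at least 8-fold and 4 fell as much, but the dimmer group lay within the background range in 10 and 3 of them, where the size is as measured and not a fold between 2 detected levels. The probe set with the largest rise of all (6.31) is assigned to several genes, the one with the largest fall (-4.52) has no symbol in the annotation, and neither is named here.

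Genes that encode structural and metabolic proteins of muscle, fin fold, lens and skin were among those that rose most. *atp2a1l*, which encodes a calcium pump of the sarcoplasmic reticulum type, had values of 9.94, 10.35 and 9.98 on the 48 hpf arrays, against 4.48, 4.60, 4.39 and 4.50 on the 24 hpf arrays, a measured difference of 5.60 (at least 22.5-fold, since the 24 hpf arrays lay within the background range; adjusted p = 4.5e-16). *tcnbb*, a vitamin B12 carrier of the transcobalamin family, had 10.55, 10.34 and 10.51 on the 48 hpf arrays, against 5.54, 5.14, 5.33 and 4.86 on the 24 hpf arrays (at least 29.3-fold). *slc25a4*, the mitochondrial carrier that exchanges ADP for ATP, had 11.34, 11.42 and 11.41 on the 48 hpf arrays, against 6.77, 6.57, 6.67 and 6.42 on the 24 hpf arrays (27.6-fold). In each of these the arrays of a group lay close together and far from the other group. The remaining genes among the 15 largest rises were the fin fold genes *and3*, *and2* and *and1*, the lens genes *crygmxl2* and *cryba4*, the keratin gene *krt91*, the parvalbumin genes *pvalb4*, *pvalb1* and *pvalb5*, *tnnt3b* of fast muscle, the matrix protease gene *mmp11b* (3.31) and *hsc70*, a chaperone gene of the Hsp70 family (4.73, 0.72 at its other probe set). Besides *atp2a1l*, the 24 hpf arrays lay within the background range in *tcnbb*, *and3*, *and2*, *pvalb5* and *hsc70*, and the fold of *hsc70* was at least 5.34.

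The largest falls held proteases, enzymes of small molecules and regulators of the tailbud. *ctsll*, which encodes a cathepsin L-like protease, had 4.88, 5.49 and 4.93 on the 48 hpf arrays, against 8.66, 8.57, 8.63 and 8.54 on the 24 hpf arrays (-3.50, adjusted p = 3.2e-13). *uox*, for urate oxidase, had 3.91, 3.77 and 3.77 on the 48 hpf arrays, against 7.34, 6.97, 7.35 and 7.20 on the 24 hpf arrays (-3.40). The 48 hpf values of both lay within the background range, so that the fold was at least 8.02 in *ctsll* and at least 3.07 in *uox*. *ctsc* and *ctss2.1*, for cathepsins C and S, differed by -3.14 and -2.84, *hnmt*, for the enzyme that methylates histamine, by -2.70, and *nr0b2a*, a nuclear receptor that represses transcription, by -2.51. *msgn1*, *cdx4*, *her2*, *tnnt2c* and *gmnn*, described below, belonged to the same 15, as did *wdr90* (-2.84), *efemp2b*, for a fibulin of the extracellular matrix (-2.81), *arl6ip5a* (-2.79) and *tgm1l4*, of the transglutaminase family (-2.17). At 48 hpf *hnmt*, *msgn1*, *cdx4*, *tnnt2c*, *gmnn*, *efemp2b* and *arl6ip5a* also lay within the background range, with folds of at least 2.02 in *hnmt* to at least 5.55 in *efemp2b*.

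**Figure D2:**
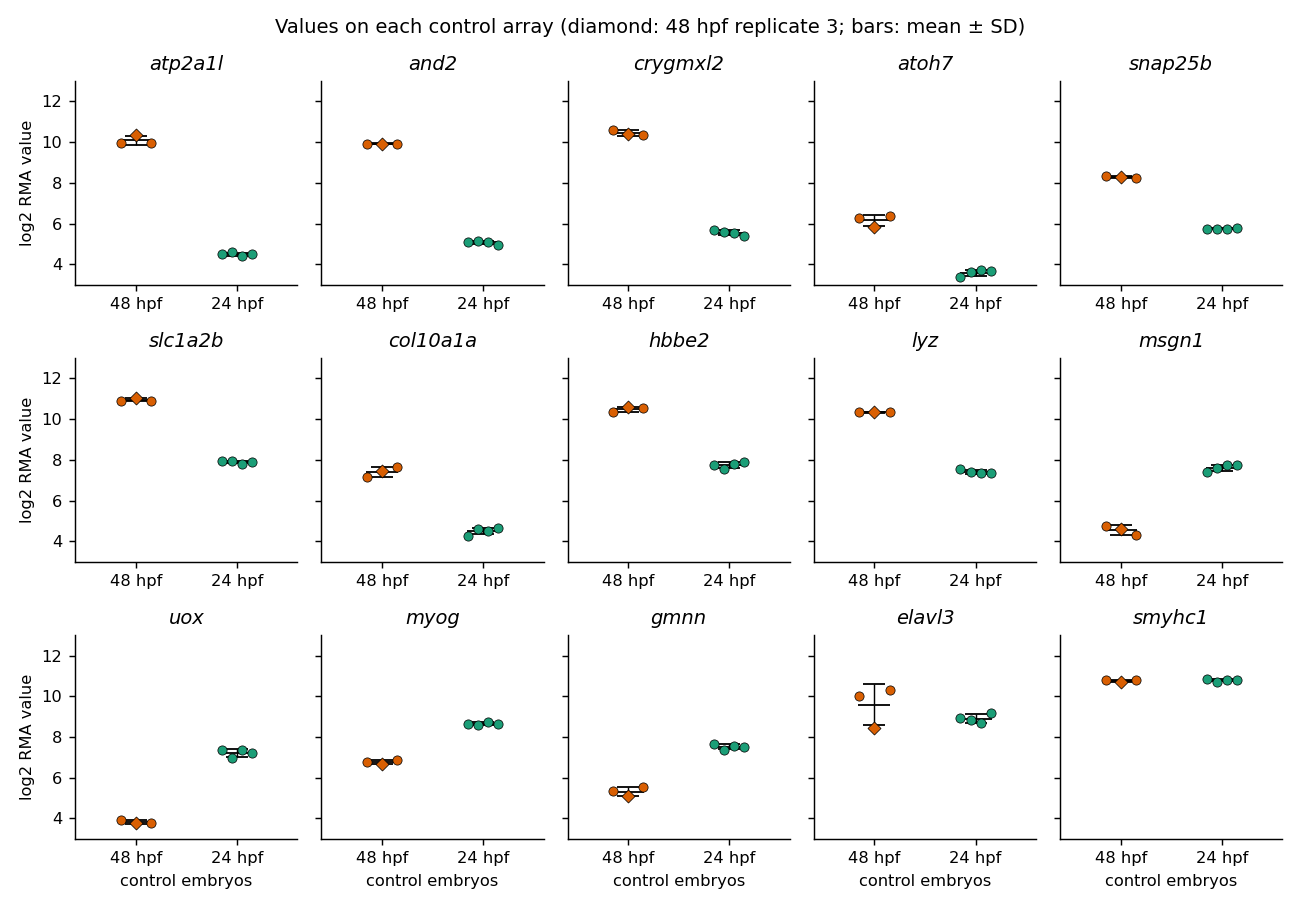
Values of 15 genes on each control array (log2 RMA value; points are arrays, bars are mean ± SD, and the diamond is 48 hpf replicate 3). The 48 hpf and 24 hpf arrays are apart in 13 of them, while in *elavl3* replicate 3 falls below the 24 hpf arrays and *smyhc1* lies near 10.76 in both groups.

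Many genes of the contractile apparatus of skeletal muscle and its energy supply were higher at 48 hpf. Of 54 such genes on the array, 21 rose (38.9% against 4.61% of all genes) and 4 fell, with a median difference of 0.66. In RNA from whole embryos, more cells of a type and more RNA per cell cannot be told apart. Parvalbumins buffer calcium and speed relaxation: *pvalb1* had 12.65, 12.49 and 12.81 on the 48 hpf arrays, against 9.34, 9.29, 9.06 and 8.98 on the 24 hpf arrays (11.2-fold), *pvalb4* rose by 3.69 and *pvalb2* by 1.62. *tnnt3b*, for a fast troponin T, had 12.65, 12.65 and 12.52 on the 48 hpf arrays, against 9.55, 9.46, 9.34 and 9.33 on the 24 hpf arrays (9.1-fold), and *tnni2a.4*, for a fast troponin I, rose by 2.31 (adjusted p = 8.2e-13). *ckma*, the muscle creatine kinase, rose by 1.01, close to the 2-fold limit. *atp2a1*, the main fast muscle calcium pump, differed by 0.65, short of a 2-fold change, and *smyhc1*, the slow myosin heavy chain, had 10.79, 10.69 and 10.81 on the 48 hpf arrays, against 10.84, 10.72, 10.79 and 10.79 on the 24 hpf arrays, with overlapping groups and a difference of -0.02 (adjusted p = 0.82). Those that fell included *tnnt2c* (-2.40), a troponin T gene of the cardiac type that lay within the background range at 48 hpf, *hspb1* (-1.95), a small heat shock protein gene, and *cacng1a* (-1.67), a subunit of the muscle calcium channel.

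Several regulators of early muscle formation were lower at 48 hpf. Of 15 myogenic regulators, 5 fell and 0 rose (median -0.28), and 4 fell without replicate 3 at 48 hpf. *myog*, for the factor that drives differentiation of myoblasts, had 6.77, 6.69 and 6.86 on the 48 hpf arrays, against 8.63, 8.59, 8.74 and 8.63 on the 24 hpf arrays, a difference of -1.87 (adjusted p = 1.0e-11). The adhesion genes *jam2a*, needed for myoblast fusion, and *cdh15*, for M-cadherin, were called lower by 1.46 and 1.43 on the log2 scale. The determination factors *myod1* (-0.43) and *myf5* (-0.28) had smaller differences in the same direction, with adjusted p of 0.0016 and 0.0036, and *myf5* and *cdh15* lay within the background range in both groups, as did *myod1* at 48 hpf.

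Many glycolysis genes were higher at 48 hpf. Of 31 genes, 14 rose (45.2%) and 0 fell, and without a minimum fold 24 were higher and 1 lower (median 0.69), where 21.9% of all genes were higher and 30.3% lower by that criterion. *pfkma*, for muscle phosphofructokinase, had 7.07, 7.47 and 7.17 on the 48 hpf arrays, against 4.37, 4.29, 4.16 and 4.06 on the 24 hpf arrays (at least 3.13-fold). *gapdhs*, for a glyceraldehyde phosphate dehydrogenase, had 11.64, 11.81 and 11.66 on the 48 hpf arrays, against 9.57, 9.68, 9.55 and 9.63 on the 24 hpf arrays (4.26-fold), and *gpib*, for glucose phosphate isomerase, rose by 2.47. The second probe set of *pgk1* differed by 0.43, where the brighter one rose by 2.08. The mean over the list was 8.49, 8.70 and 8.48 on the 48 hpf arrays against 7.58, 7.60, 7.58 and 7.54 on the 24 hpf arrays, with replicate 3 the highest.

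Transcripts of differentiated neurons rose broadly. 29 of 56 such genes on the array were higher (51.8%) and 0 lower, with a median of 1.02, and 21 members had both group means within the background range. Without replicate 3 the counts were also 29 and 0. *snap25b*, for a protein of synaptic vesicle fusion, had 8.32, 8.30 and 8.24 on the 48 hpf arrays, against 5.74, 5.72, 5.75 and 5.80 on the 24 hpf arrays (5.79-fold, adjusted p = 1.4e-14). *gad1b*, for the enzyme that makes GABA, had 7.26, 6.72 and 7.30 on the 48 hpf arrays, against 5.16, 5.09, 5.21 and 5.12 on the 24 hpf arrays (at least 2.83-fold). All 48 hpf values lay above all 24 hpf values in both, and replicate 3 was the lowest of the 48 hpf arrays in *gad1b*. *nsfa*, for the ATPase that recycles fusion complexes, rose by 2.28, *cpe*, which trims neuropeptides, by 2.16, and *gap43*, of growing axons, by 1.02. At 24 hpf *gad1b* and *cpe* lay within the background range. *tuba2* rose by 2.40, but its 2 other probe sets differed by 0.09 and 0.46.

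Both RNA-binding Hu genes of postmitotic neurons differed between replicate 3 and the other 48 hpf arrays. *elavl4* had 8.61, 7.54 and 8.91 on the 48 hpf arrays, against 6.69, 6.54, 6.43 and 6.43 on the 24 hpf arrays (1.83, or 2.24 without replicate 3). *elavl3* had 9.99, 8.44 and 10.32 on the 48 hpf arrays, against 8.94, 8.85, 8.67 and 9.16 on the 24 hpf arrays: replicate 3 lay below every 24 hpf array and the others above them. Its difference was 0.68 (adjusted p = 0.068) with replicate 3 and 1.25 (adjusted p = 1.6e-06) without, so its call depends on whether that array is included. Its 3 other probe sets differed by 0.38 to 0.60. The mean over the neuronal list kept replicate 3 with its group: it was 6.80, 6.70 and 6.83 on the 48 hpf arrays against 5.75, 5.74, 5.72 and 5.73 on the 24 hpf arrays.

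Most receptors, glial genes, proneural genes and progenitor regulators did not pass the fold. The share that rose exceeded 4.61% in each list, and the share that fell exceeded 3.82% in all but the glial list. Of 23 receptors and voltage-gated channels, 2 rose (8.7%), the glycine receptor gene *glra4a* (1.99) and the sodium channel gene *scn8aa* (1.28). *cacng1a* fell, and 16 of the list had both group means within the background range. Of 20 glial genes, 3 rose (15%) and 0 fell, and without a minimum fold 7 were higher and 6 lower (median 0.03). *slc1a2b*, the glutamate transporter of astroglia, had 10.91, 11.04 and 10.92 on the 48 hpf arrays, against 7.92, 7.96, 7.82 and 7.92 on the 24 hpf arrays (8.28-fold). *apoea*, also on the liver list, rose by 2.35 and *fabp7a*, a fatty acid binding protein of radial glia, by 1.87. The key members *gfap* and *apoeb* differed by 0.07 and -0.23, and *mbpa* lay within the background range in both groups (-0.04). Among 35 proneural and Notch pathway genes, 5 rose (14.3%), among them *insm1b* (1.35), of newborn neurons, and 2 fell (5.71%). *her2*, a repressor of the hairy and Enhancer of split family, had 6.49, 6.42 and 6.74 on the 48 hpf arrays, against 8.80, 8.83, 8.95 and 8.88 on the 24 hpf arrays (-2.32). The proneural genes *neurog1* and *ascl1a* differed by 0.28 and 0.46. Of 55 progenitor and patterning regulators, 5 rose and 4 fell (9.09% and 7.27%). Without a minimum fold 19 were higher and 20 lower (34.5% and 36.4%, against 21.9% and 30.3% of all genes), with a median of -0.04. *lhx5* (1.80) and *meis2a* (1.27) were among the rises and *egr2b* of the hindbrain (-1.68) and *zic2b* (-1.65) among the falls, while the progenitor genes *sox19a* and *sox3* differed by -0.87 and -0.52. The second *zic2b* probe set differed by 0.14, *glra4a* and *scn8aa* lay within the background range at 24 hpf, and *egr2b* did so at 48 hpf.

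Among genes with roles in the eye, many regulators of retinal neurons and several lens crystallins rose, whereas photoreceptor effector genes stayed near background. RNA from whole embryos does not place these rises in the eye, and several members of the retinal list are also on other lists. Of 29 retinal regulators, 12 rose (41.4%) and 0 fell (median 0.66). Without a minimum fold 20 were higher and 5 lower (69% and 17.2%, against 21.9% and 30.3% of all genes). *atoh7*, which is needed to make retinal ganglion cells, had 6.27, 5.83 and 6.37 on the 48 hpf arrays, against 3.36, 3.61, 3.71 and 3.65 on the 24 hpf arrays (at least 1.48-fold, adjusted p = 4.6e-11). *vsx1*, of bipolar cells, had 7.69, 7.04 and 7.46 on the 48 hpf arrays, against 5.21, 5.27, 5.35 and 5.21 on the 24 hpf arrays (at least 3.49-fold). *lhx1a* and *lhx9*, LIM homeobox genes with roles in horizontal and amacrine cells, rose by 2.50 and 2.02, and by 2.79 and 2.40 without replicate 3, which was the lowest 48 hpf array in all of these. *atoh7*, *vsx1*, *lhx1a* and *lhx9* all lay within the background range at 24 hpf. Among key members of the list, *pax6a* differed by -0.13 with overlapping groups, and *rx3* by -0.29 with both groups within the background range. *sox2* differed by -0.40 without overlap, and by -0.45 and 0.23 at its 2 other probe sets.

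*crx*, a homeobox gene of photoreceptor precursors, had 6.67, 6.62 and 6.57 on the 48 hpf arrays, against 3.80, 4.13, 3.77 and 4.00 on the 24 hpf arrays (at least 2.04-fold), and *nr2e3*, a nuclear receptor of photoreceptors, was called higher with a difference of 1.41, although both its groups lay within the background range. *crx* lay within that range at 24 hpf. They were the only 2 of 32 photoreceptor genes called, and 27 of the list had both means within the background range. The ultraviolet opsin gene *opn1sw1* had 4.50, 4.44 and 3.98 on the 48 hpf arrays, against 3.98, 4.43, 4.24 and 4.15 on the 24 hpf arrays, with overlapping groups. Of 12 lens genes, 5 rose and 0 fell. *crygmxl2*, a gamma crystallin, had 10.60, 10.38 and 10.33 on the 48 hpf arrays, against 5.70, 5.58, 5.54 and 5.38 on the 24 hpf arrays (29.5-fold). The beta crystallins *cryba4* and *crybb1* rose by 3.91 and 2.94, the alpha crystallin *cryaa* by 1.497 and *bfsp2*, for a beaded filament protein of lens fibres, by 1.73, and *cryaa* and *bfsp2* lay within the background range at 24 hpf. The other 7 lens genes had both group means within the background range.

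**Figure D3:**
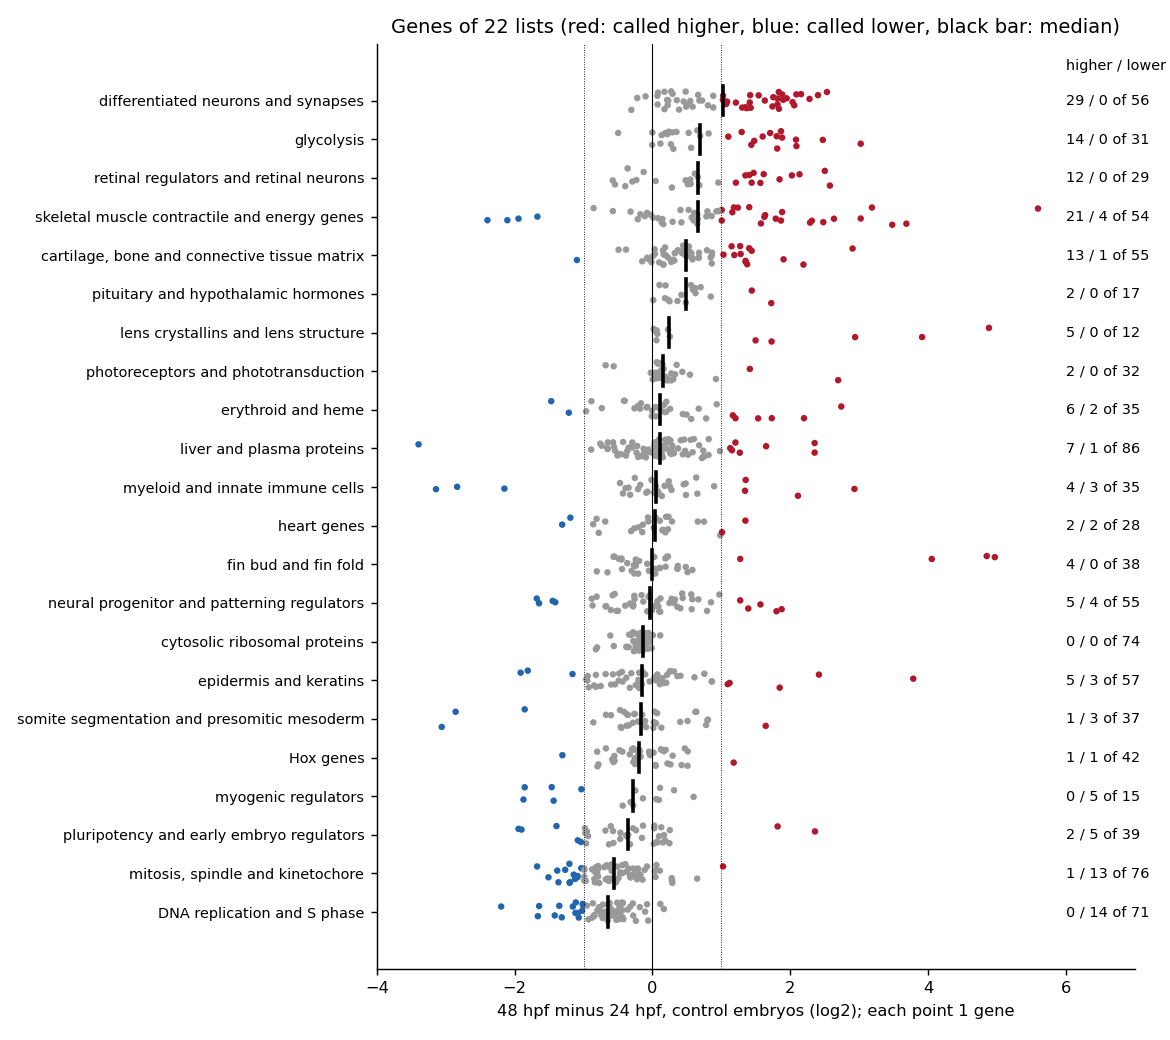
Difference of each gene (48 hpf minus 24 hpf in controls, log2) in 22 gene lists, ordered by median, with the number called higher and lower of those on the array. Neuronal genes (29 higher, 0 lower) stand at the top and DNA replication genes (0 higher, 14 lower) at the bottom, and most lists lie around 0.

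The 3 actinodin genes of the fin fold rose together. Actinodins are structural proteins of the actinotrichia, the fibrils that stiffen the larval fin fold. *and2* had 9.93, 9.93 and 9.91 on the 48 hpf arrays, against 5.11, 5.14, 5.09 and 4.94 on the 24 hpf arrays (at least 20.1-fold, adjusted p = 5.4e-17). *and1* had 11.89, 12.00 and 11.92 on the 48 hpf arrays, against 8.01, 7.96, 7.78 and 7.79 on the 24 hpf arrays (16.6-fold), and *and3* rose by 4.97. All 48 hpf arrays lay far above all 24 hpf arrays in each of them, and *and2* and *and3* lay within the background range at 24 hpf. Elsewhere in the list of 38 fin genes, 1 further gene rose (*meis2a*) and 0 fell.

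Genes of the skeletal and connective tissue matrix were higher at 48 hpf more often than lower. 13 of 55 were higher (23.6%) and 1 lower. Without a minimum fold 35 were higher (63.6%, against 21.9% of all genes) and 3 lower (5.45%, against 30.3%). *col10a1a*, for type X collagen, had 7.14, 7.45 and 7.65 on the 48 hpf arrays, against 4.28, 4.62, 4.49 and 4.65 on the 24 hpf arrays (at least 3.53-fold, adjusted p = 2.1e-12). *col1a2*, for type I collagen, had 11.91, 11.98 and 11.95 on the 48 hpf arrays, against 10.50, 10.51, 10.60 and 10.42 on the 24 hpf arrays (2.71-fold), and *col6a3* rose by 1.90. At 24 hpf *col10a1a* and *col6a3* lay within the background range. *runx2a*, for a transcription factor of bone cells, had 7.58, 7.80 and 7.47 on the 48 hpf arrays, against 5.78, 5.53, 5.37 and 5.02 on the 24 hpf arrays (4.57-fold), but its second, dimmer probe set differed by 0.14. The cartilage collagens *col2a1a* and *col9a2* differed by 0.79 and 0.86, with no overlap between the groups and short of a 2-fold change.

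Of 34 neural crest regulators, 2 rose (5.88%) and 1 fell (2.94%), near the 4.61% and 3.82% of all genes. Without a minimum fold 11 were higher and 13 lower (32.4% and 38.2%, against 21.9% and 30.3% of all genes). *tfap2b*, a transcription factor, had 8.54, 8.75 and 8.48 on the 48 hpf arrays, against 6.22, 6.24, 6.27 and 6.30 on the 24 hpf arrays (5.03-fold), and *dlx4a*, a homeobox gene of the pharyngeal arches, rose by 1.48. *crestin*, a marker of migrating crest, had 7.14, 6.11 and 7.31 on the 48 hpf arrays, against 8.74, 8.64, 8.68 and 8.78 on the 24 hpf arrays (-1.86, or -1.48 without replicate 3). *foxd3*, of premigratory crest, differed by -0.44. Also on the list, *sox10* differed by 0.24 without overlap, and *dlx2a* by 0.10 with overlapping groups. Of 12 melanophore genes, *dct*, for an enzyme of melanin synthesis, rose by 1.74 and *pmelb*, of the melanosome matrix, by 1.09, and both groups of *pmelb* lay within the background range. They were the only 2 called (16.7%, against 4.61% of all genes). Without a minimum fold 4 were higher and 3 lower, and the median was 0.10, or -0.03 without replicate 3. The key member *mitfa* differed by -0.36 without overlap, and *tyr* by -0.07 with both groups within the background range. None of 15 genes of xanthophores and iridophores was called by the fold rule, and 3 were higher and 5 lower by the limma test without it.

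Red blood cell genes changed in both directions. 6 of 35 rose and 2 fell. *hbbe2*, an embryonic beta globin, had 10.36, 10.58 and 10.54 on the 48 hpf arrays, against 7.76, 7.57, 7.79 and 7.89 on the 24 hpf arrays (6.68-fold), and *slc4a1a*, the anion exchanger of the red cell membrane, had 9.51, 9.88 and 9.53 on the 48 hpf arrays, against 7.51, 7.15, 7.48 and 7.62 on the 24 hpf arrays (4.59-fold). *alas2*, which starts haem synthesis in red cells, rose by 1.73 and the carbonic anhydrase gene *cahz* by 1.53. *hbae3*, an embryonic alpha globin near the top of the intensity range, differed by 0.93. The members that fell were *urod* and *cpox*, for later enzymes of haem synthesis, by 1.47 and 1.21 on the log2 scale, both named after their values were seen.

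Genes of myeloid cells also changed in both directions. Of 35 genes, 4 rose and 3 fell. *lyz*, for lysozyme, had 10.34, 10.36 and 10.33 on the 48 hpf arrays, against 7.54, 7.40, 7.34 and 7.36 on the 24 hpf arrays (7.63-fold, adjusted p = 1.0e-15), and *cpa5*, for a mast cell carboxypeptidase, rose by 2.11 over 24 hpf values within the background range. *ctss2.1* had 8.71, 9.03 and 8.30 on the 48 hpf arrays, against 11.54, 11.47, 11.58 and 11.48 on the 24 hpf arrays (-2.84). *ifi30a*, for a thiol reductase of lysosomes, fell by 2.15 on the log2 scale. *mpx*, for the neutrophil myeloperoxidase, differed by 0.89 at its brightest probe set, which lay within the background range at 24 hpf, and by 0.03 to 2.20 at 3 others.

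Most genes of the vessel and heart lists were not called, and in the vessel list 5.56% rose and 2.78% fell. Among 36 endothelial genes, *gata2a* (1.51) and the flow-responsive gene *klf2a* (1.01), within the background range at 24 hpf, rose and *cldn5a*, for a claudin, was called lower (-1.44, with both groups within the background range and its 2 other probe sets at -0.13 and -0.06). *kdrl*, for the endothelial VEGF receptor, had 7.17, 6.40 and 7.13 on the 48 hpf arrays, against 6.83, 6.90, 6.95 and 7.02 on the 24 hpf arrays, with overlapping groups and a difference of -0.03. Of 28 heart genes, 2 rose and 2 fell (7.14% each, against 4.61% and 3.82% of all genes). The rises were *isl1a* (1.35, with its other probe set at 0.75), also on the lists of retina, neurons and pancreas, and *klf2a* again. The falls were *tnnt2a*, for cardiac troponin T, by 1.31 and the homeobox gene *nkx2.7* by 1.19 on the log2 scale. *myl7*, for the cardiac myosin light chain, had 7.89, 7.98 and 8.09 on the 48 hpf arrays, against 8.87, 8.88, 8.77 and 8.88 on the 24 hpf arrays, lower without overlap but short of 2-fold (-0.86, adjusted p = 1.0e-08).

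In the lists of digestive organs more genes were called higher than lower at 2-fold, while by the test alone the gut list had 7 of each. Of 86 liver and plasma protein genes, 7 rose (8.14%) and 1 fell (*uox*). *cp*, for the copper carrier ceruloplasmin, had 7.75, 8.39 and 7.83 on the 48 hpf arrays, against 5.59, 5.78, 5.47 and 5.71 on the 24 hpf arrays (5.11-fold), *hgd*, of tyrosine breakdown, rose by 1.65, the fibrinogen gene *fgb* differed by 0.82 and the transferrin gene *tfa* by -0.51. *fabp10a*, the marker of hepatocytes, lay within the background range at both ages (0.12, adjusted p = 0.43). Of 34 pancreas genes, 6 rose (17.6%), among them *isl1a*, also on the neuronal list, and *sst1.1*, also on the list of pituitary and hypothalamic hormones. *sst1.1*, for somatostatin, had 6.09, 6.56 and 6.10 on the 48 hpf arrays, against 4.94, 4.97, 4.80 and 4.51 on the 24 hpf arrays (at least 1.57-fold). *ins*, for insulin, had 7.48, 7.94 and 7.44 on the 48 hpf arrays, against 6.44, 6.73, 6.49 and 6.41 on the 24 hpf arrays, a difference of 1.10 that was 0.94 without replicate 3, below the 2-fold limit. The trypsin gene *prss1* had 4.57, 4.58 and 4.57 on the 48 hpf arrays, against 4.43, 4.32, 4.52 and 4.62 on the 24 hpf arrays, with overlapping groups within the background range. In the gut list *fabp2*, for the intestinal fatty acid binding protein, had 9.92, 9.73 and 9.91 on the 48 hpf arrays, against 11.86, 11.83, 11.85 and 11.86 on the 24 hpf arrays (-1.99), and *pyya*, for peptide YY, *cldn15la*, for a claudin, and *agr2*, of secretory cells, rose by 1.51, 1.23 and 1.12, leaving 28 of 32 not called. At 24 hpf *pyya*, *cldn15la*, *hgd* and *sst1.1* lay within the background range. Of 30 kidney genes, 2 rose, *lhx1a* and *gata3* (1.42), which are also expressed in the nervous system, and *cad*, for an enzyme of pyrimidine synthesis that dividing cells also use, fell by 1.07 on the log2 scale.

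Keratin genes of the skin changed in both directions. Of 57 epidermal genes, 5 rose and 3 fell (8.77% and 5.26%), and 6 fell without replicate 4 at 48 hpf. Without a minimum fold 13 were higher and 26 lower (45.6%, against 30.3% of all genes), with a median of -0.16. The key members *krt5*, *krt8* and *krt18a.1* differed by -0.19, -0.20 and -0.49, each without overlap and short of a 2-fold change. *krt91* had 10.94, 11.12 and 11.29 on the 48 hpf arrays, against 7.57, 7.25, 7.45 and 7.05 on the 24 hpf arrays (13.8-fold, 3.89 at its second probe set). *krt15*, within the background range at 24 hpf, and *krt94* rose by 2.42 and 1.85, while *krt1-19d* had 5.17, 5.96 and 5.32 on the 48 hpf arrays, against 7.58, 7.33, 7.47 and 7.21 on the 24 hpf arrays (-1.91). *krt4*, of the outer skin layer and among the brightest genes on the array, had 13.11, 13.08 and 13.16 on the 48 hpf arrays, against 13.03, 13.02, 13.15 and 13.08 on the 24 hpf arrays, with overlapping groups. In the ear, 0 of 17 genes rose and 1 fell: *oc90*, for the main matrix protein of early otoliths, with 5.69, 5.40 and 5.34 on the 48 hpf arrays, against 7.63, 7.42, 7.59 and 7.70 on the 24 hpf arrays (-2.11).

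Several genes of the tailbud and presomitic mesoderm were at background by 48 hpf. *msgn1*, for a bHLH factor of the presomitic mesoderm, had 4.75, 4.63 and 4.30 on the 48 hpf arrays, against 7.43, 7.58, 7.73 and 7.73 on the 24 hpf arrays (-3.06, adjusted p = 1.7e-13). *cdx4*, a caudal homeobox gene, had 4.44, 4.77 and 3.93 on the 48 hpf arrays, against 7.24, 7.04, 7.37 and 7.30 on the 24 hpf arrays (-2.86), and *tbx6*, a T-box gene of the same tissue, fell by 1.85 on the log2 scale. All 48 hpf values of these 3 genes lay below 5.59. *tbxta*, for Brachyury, differed by -0.86, and *her1*, of the segmentation clock, by -0.38, with both groups within the background range. Of 37 genes in the list, these 3 fell and *fn1b*, for a fibronectin, rose by 1.64. The second *msgn1* probe set differed by -0.19. In the notochord and floor plate list 2 of 34 fell (5.88%, against 3.82% of all genes), the transporter gene *slc38a8b* (-2.10, within the background range at 48 hpf) and *ntd5* (-1.05). In the same list 1 gene rose, and 0 did so without replicate 3 at 48 hpf. Without a minimum fold 10 were higher and 12 lower.

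Patterning and signalling genes mostly stayed within 2-fold. Among 42 Hox genes, *hoxc4a* rose by 1.18 and *hoxb1a*, of the hindbrain, was called lower by 1.31 on the log2 scale with both group means below 5.59, and without a minimum fold 7 were higher and 19 lower (45.2%, against 30.3% of all genes). Of 91 genes of the Wnt, Fgf, Bmp, Hedgehog and retinoid pathways, 5 rose and 2 fell. *lef1*, for a nuclear effector of Wnt signalling, had 8.07, 8.14 and 8.17 on the 48 hpf arrays, against 6.44, 6.20, 6.41 and 6.18 on the 24 hpf arrays (3.53-fold), and *id4*, for an inhibitor of bHLH factors, rose by 1.65. Of 39 regulators of the early embryo, 5 fell, among them the ventral homeobox gene *vox* (-1.90), and 2 rose. Without replicate 3 at 48 hpf 7 fell. The members that rose were *gsc* (2.36), a gastrula organiser gene that is expressed again in the pharyngeal arches, and *her3* (1.82), whose second probe set differed by -1.98, so its direction depends on the probe set. Both *gsc* and *her3* lay within the background range at 24 hpf.

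Most genes of cell division were lower at 48 hpf, the majority by less than 2-fold. Of 71 genes of DNA replication and S phase, 14 fell at least 2-fold (19.7%, against 3.82% of all genes) and 0 rose. By the test alone 64 were lower (90.1%, against 30.3% of all genes) and 0 higher (median -0.64). Without replicate 3 at 48 hpf 10 fell at least 2-fold, and the median was -0.69. *gmnn*, for geminin, which keeps origins from being licensed again, had 5.34, 5.08 and 5.54 on the 48 hpf arrays, against 7.63, 7.36, 7.56 and 7.51 on the 24 hpf arrays (-2.20, adjusted p = 2.9e-11), within the background range at 48 hpf. *slbp*, which processes histone messengers, fell by 1.66, the polymerase subunit gene *pold3* by 1.65 and *orc6*, of the origin recognition complex, by 1.42 on the log2 scale. *pcna*, for the sliding clamp of replication, had 12.15, 12.21 and 11.98 on the 48 hpf arrays, against 12.51, 12.55, 12.54 and 12.56 on the 24 hpf arrays, lower without overlap by 0.42. The helicase gene *mcm5* differed by -0.63.

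The list of mitosis, spindle and kinetochore genes had 13 of 76 lower (17.1%, against 3.82% of all genes) and 1 higher. By the test alone 58 were lower (76.3%, against 30.3% of all genes) and 3 higher (median -0.56). Without replicate 3 at 48 hpf 11 were called lower, and without replicate 4 there 18 were. *kif20a*, for a kinesin of cytokinesis, had 8.22, 8.46 and 8.21 on the 48 hpf arrays, against 10.16, 9.87, 9.77 and 10.07 on the 24 hpf arrays (-1.67, with its second probe set at -0.61). *cks1b*, for a partner of cyclin-dependent kinases, *cenpk*, of the kinetochore, and *mad2l1*, of the spindle checkpoint, fell by 1.51, 1.38 and 1.36 on the log2 scale. *ccnb1*, for cyclin B1, its kinase gene *cdk1* and *plk1* differed by -0.81, -0.79 and -0.79, all without overlap. The mean over the replication list was 7.70, 7.76 and 7.61 on the 48 hpf arrays against 8.39, 8.37, 8.37 and 8.39 on the 24 hpf arrays. Scaled to ribosomal protein genes, the medians were -0.49 for replication and -0.41 for mitosis, and 7 and 8 members were called lower.

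*esco2*, for the acetyltransferase that establishes sister chromatid cohesion in S phase and the gene targeted in the morphants, had 8.23, 8.23 and 8.01 on the 48 hpf arrays, against 9.19, 9.10, 9.19 and 9.16 on the 24 hpf arrays in controls, a difference of -1.0004 (SE 0.10, adjusted p = 1.3e-07). It lies at the 2-fold limit and was not called without replicate 4 at 48 hpf (-0.92), nor without replicate 1 or 3 at 24 hpf (-0.99 each). No other gene of the 14 in the *esco2* and cohesin list was called at 2-fold. By the test alone 7 of the 14, *esco2* included, were lower (50%, against 30.3% of all genes). By the same criterion 2 were higher (14.3%, against 21.9%), and the median of the list was -0.27. The cohesin subunit genes *rad21a* and *smc3* differed by -0.05 and 0.01, with overlapping groups.

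**Figure D4:**
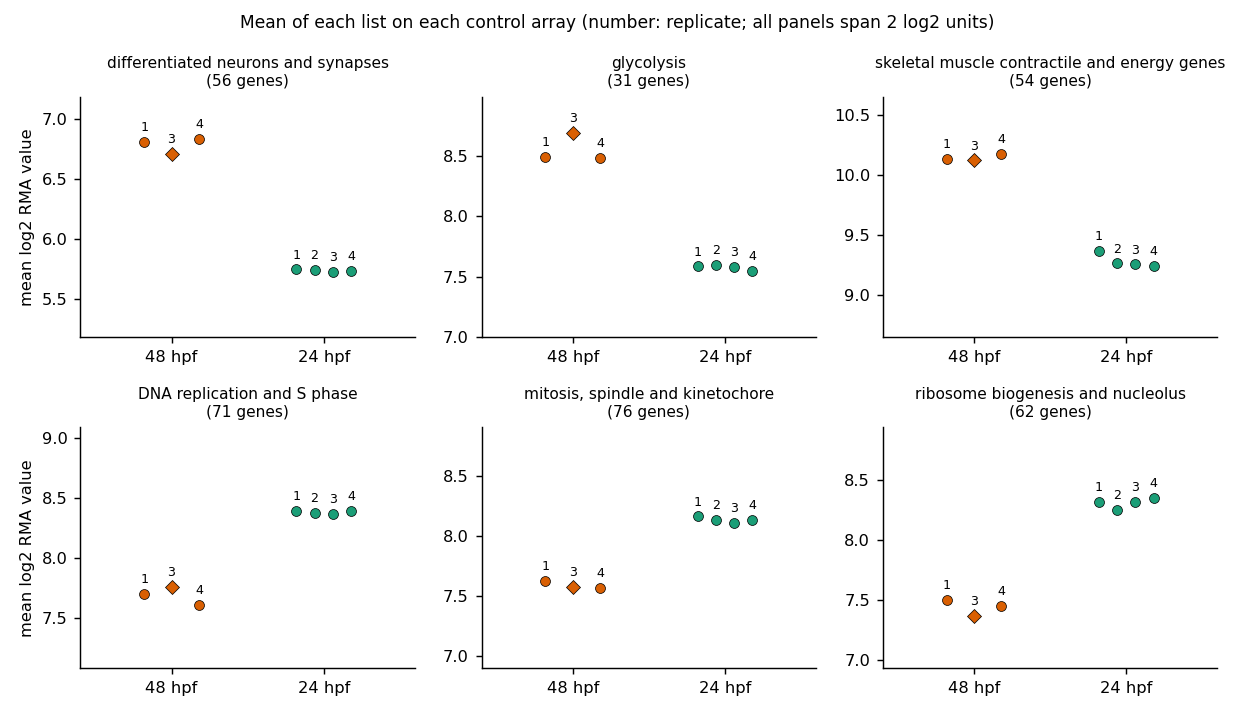
Mean log2 RMA value over the genes of 6 lists on each control array, 48 hpf left and 24 hpf right, numbered by replicate. The groups are apart in all 6 panels, with neuronal means of 6.80, 6.70 and 6.83 at 48 hpf against 5.75, 5.74, 5.72 and 5.73 at 24 hpf, and replicate 3 at 48 hpf stays with its group. The list of ribosome biogenesis genes was drawn up after its values were seen.

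Genes of cytosolic ribosomal proteins, the proteasome and splicing mostly changed by less than 2-fold. None of 74 cytosolic ribosomal protein genes passed the fold in limma's test. By adjusted p alone 28 were lower (37.8%, against 30.3% of all genes) and 0 higher. The median was -0.14, or 0.02 when the arrays are scaled to this same list. The 38 proteasome genes gave 0 calls at 2-fold. By limma's adjusted p alone 12 of them were lower, a share of 31.6% that is near the 30.3% of all genes, and 0 higher. Of 65 splicing genes *snrpg* fell (-1.03). Of 71 respiratory chain genes, 3 rose and 0 fell, a share of 4.23% higher that is near the 4.61% of all genes. *cox4i1l* had 7.13, 7.46 and 7.10 on the 48 hpf arrays, against 4.62, 4.79, 4.66 and 4.48 on the 24 hpf arrays (at least 3.1-fold). *ndufa4b* and *cox6b1* rose by 1.36 and 1.28, and *cox4i1l* and *ndufa4b* lay within the background range at 24 hpf. Of 32 chaperone genes, *hspb1*, *hspb8* (-1.73) and the muscle-expressed *hsp90aa1.1* (-1.31) fell (9.38%, against 3.82% of all genes). Of 17 hormone genes of pituitary and hypothalamus, 12 were higher by adjusted p alone (70.6%, against 21.9% of all genes). At 2-fold 2 were higher, *sst1.1* and *adcyap1b* (1.72), and 12 of the list had both group means within the background range. In the clock list *nfil3-5* rose (1.47), no other of the 35 genes was called, and *per2*, a light-induced clock gene, differed by 0.83. The remaining lists had 1 of 24 ionocyte genes, 1 of 9 hatching gland genes, and none of 11 smooth muscle, 25 germ cell and 21 interferon and complement genes called higher in limma's test, and no gene of these lists was called lower. By limma's adjusted p alone the smooth muscle list had 6 higher and 3 lower (54.5% and 27.3%). The germ cell list had 3 and 4 (12% and 16%), and the interferon and complement list 4 and 2 (19% and 9.52%). Over all genes these shares were 21.9% and 30.3%.

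Calls near the 2-fold limit turned on single arrays. *ckma* was 0.98 without replicate 4 at 24 hpf, *gap43* 0.98 without replicate 4 at 48 hpf and *ins* 0.94 without replicate 3 at 48 hpf. *klf2a* was 0.90 and *ntd5* and *cad* -0.93 each without replicate 4 at 48 hpf, and *snrpg* was -0.98 without replicate 3 at 48 hpf. None of these then reached 2-fold, while their adjusted p stayed below 0.05. Counts of 0 to 2 called genes in a list moved by 1 in the same way, and some larger counts moved by more.

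The change over time in controls was set against the same change in *esco2* morphants, with which it shares no array. Across probe sets the changes correlated with Pearson's r = 0.88, a description over probe sets that are not independent, and the changes in controls spread more widely (SD 0.58 in controls against 0.52 in morphants). Of the 635 probe sets higher in controls, 633 moved the same way in morphants and 434 were also called, and of the 518 lower ones 511 and 212, where the background of calls in morphants was 3.54% higher and 1.82% lower. No probe set was called in opposite directions.

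The difference between the 2 changes passed the test in 973 probe sets (6.28%), more positive in controls in 2.52% and more negative in 3.75%. Among those higher in controls, 171 had risen more in controls and 24 less, and among those lower in controls 140 had fallen more there and 6 less. Since members were chosen by their change in controls, a larger size there is partly built in. *crx* rose by 2.70 in controls and 1.03 in morphants (adjusted p of the difference = 2.0e-04), and *col10a1a* by 2.90 in controls and 1.29 in morphants (adjusted p = 2.1e-05). *cox4i1l* and *gsc* rose by 2.59 and 2.36 in controls and by 1.04 and 1.27 in morphants. These 4 genes lay within the background range in controls at 24 hpf. The lens genes *crybb1* and *cryba4* were among the exceptions, with 2.94 and 3.91 in controls and 4.40 and 4.96 in morphants (adjusted p = 1.5e-04 and 6.1e-04). *her2* changed by -2.32 in controls and -0.99 in morphants (adjusted p = 5.5e-06), and *esco2* itself by -1.0004 in controls and -0.29 in morphants (adjusted p = 0.0039). The count is sensitive to single arrays and to weighting: without replicate 4 of the 48 hpf controls 1584 probe sets differed, and with array weights 491.

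**Figure D5:**
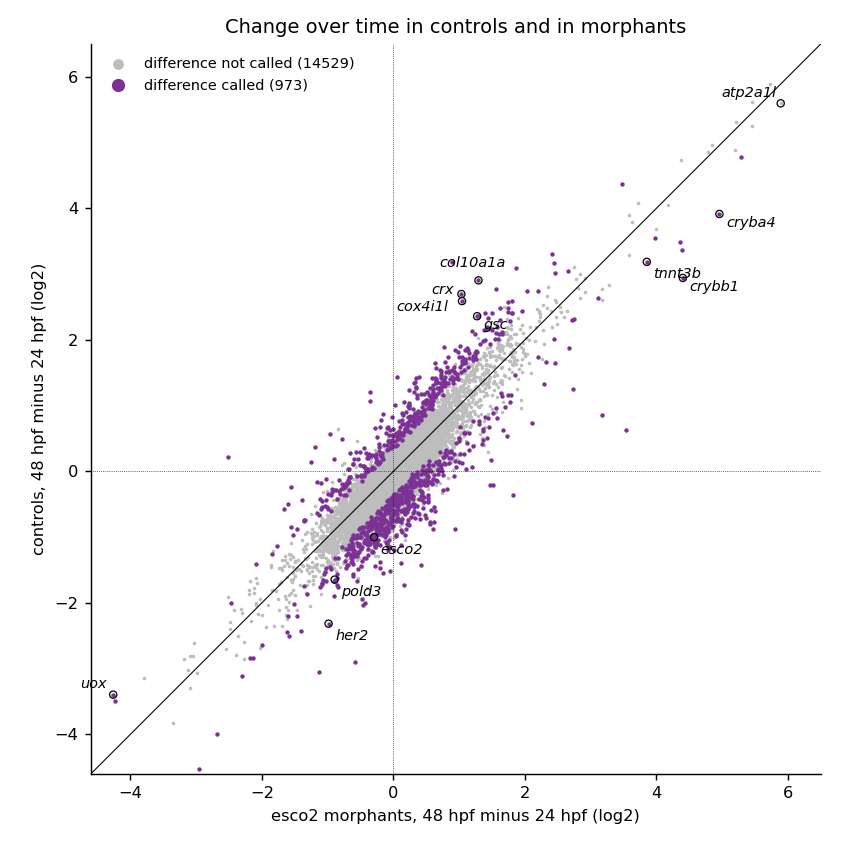
Change over time of each probe set in controls (vertical, 48 hpf minus 24 hpf, log2) against the same change in *esco2* morphants (horizontal), with the line of equal change and the 973 probe sets whose changes differ in purple. Most lie along the line (r = 0.88), *crx* and *col10a1a* stand above it and *crybb1* and *cryba4* below.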

How the data were processed

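RNA from pools of wild-type zebrafish embryos was measured on Affymetrix arrays. The deposited log2 values were made by the authors with RMA (background correction, quantile normalization and probe set summary), and their comparisons used LIMMA with FDR 5% and a 2-fold limit, which was followed here. Of 15617 probe sets, 115 controls were left out. Of 15502 tested, 10795 had 1 symbol in the platform annotation, 135 several and 4572 none. A gene was represented by its probe set with the highest mean over all 15 arrays (8793 genes, 1539 with several probe sets).

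limma 3.58.1 in R 4.3.3 fitted 4 groups over 15 arrays, so that the control comparison shares its spread with the morphants, with Benjamini-Hochberg adjustment over all probe sets, and tables and figures were made with Python 3.11.15, pandas 2.3.3, numpy 2.4.6 and matplotlib 3.10.9. The fit was tested on simulated data. Pools are the replicates, the number of arrays limits the precision, and p-values measure the spread between pools. The genes named were drawn from 266. These include the 15 largest rises and 15 largest falls among called, non-overlapping genes whose names are not clone or locus numbers. They also include key members marked in each of 46 lists and up to 4 of the largest called members of a list. Further genes were added after their values were seen. Not all of the 266 are printed, so key members are not all shown whatever their value. The background range, from control probe sets with no zebrafish target, was set after the values were seen. Members, lists and rules were chosen with earlier results of these data known. Alternatives changed the normalization, weights, filter, test, fold, feature, replicate block and arrays used.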

Additional observations from a re-analysis of the deposited data

Results flagged for a closer look

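In 61 of the genes named, the change from 24 to 48 hpf in controls differed from the change in *esco2* morphants by limma's test of the difference itself (adjusted over all probe sets, 3 and 4 control arrays and 4 and 4 morphant arrays). The size of the change was smaller in morphants in 47 of them and larger in 14, a split that is partly built in because many of these genes were named for the size of their change in controls. Over all probe sets the change was more positive in controls in 2.52% and more negative in 3.75%. Each value in parentheses below is the control change minus the morphant change on the log2 scale. Several of these genes lay within the background range in a control group or in both, as given above. Among them are *crx*, *nr2e3*, *col10a1a*, *cldn5a* and *uox*, and their differences are as measured.

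Genes of the eye and nervous system that were higher at 48 hpf by more in controls were *crx* (1.66), *nr2e3* (1.07), *vsx1* (0.93), *atoh7* (0.84), *gata3* (0.83), *tuba2* (0.60), *meis2a* (0.59), *adcyap1b* (0.58), *lhx5* (0.55), *nsfa* (0.50), *gap43* (0.46) and *slc1a2b* (0.39). The 48 and 24 hpf means of *nr2e3* were 5.07 and 3.66 in controls and 3.91 and 3.56 in morphants, all below the background level of 5.59. Those of skeleton, crest and skin were *col10a1a* (1.61), *gsc* (1.08), *mmp11b* (0.90), *tfap2b* (0.90), *dlx4a* (0.76), *krt94* (0.72), *col9a2* (0.50) and *col2a1a* (0.40). Those of blood and vessels were *alas2* (0.91), *gata2a* (0.72) and *hbbe2* (0.71). Energy metabolism gave *cox4i1l* (1.55), *cox6b1* (0.94), *ndufa4b* (0.70) and *pfkma* (0.57), and patterning and signalling gave *lef1* (0.84), *hoxc4a* (0.57) and *id4* (0.56).

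Genes that were higher at 48 hpf by less in controls than in morphants were *crybb1* (-1.46) and *cryba4* (-1.04) of the lens, *pvalb1* (-0.87), *tnnt3b* (-0.67), *slc25a4* (-0.50) and *tnni2a.4* (-0.44) among the genes of muscle and its energy supply, and *fn1b* (-0.82), *fabp7a* (-0.80), *fgb* (-0.76) and *ascl1a* (-0.53).

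Genes that were lower at 48 hpf by more in controls included those of cell division and ribosome assembly, *mphosph10* (-0.98), *pold3* (-0.75), *cenpk* (-0.74), *esco2* (-0.71), *mrto4* (-0.63), *plk1* (-0.62), *gmnn* (-0.60) and *ccnb1* (-0.44). The others were *her2* (-1.33), *cldn5a* (-0.94), *nr0b2a* (-0.92), *hspb8* (-0.88), *wdr90* (-0.70), *ctss2.1* (-0.66), *myf5* (-0.47), *sox3* (-0.40) and *myl7* (-0.35). *myf5* differed by -0.28 in controls and 0.20 in morphants, so its sign was opposite, and both values lay within the background range. Genes that were lower by less in controls were *uox* (0.87), *ctsll* (0.74), *foxd3* (0.57) and *fabp2* (0.47).

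The 4 control arrays at 24 hpf were checked in 169 of the named genes for 1 array apart from the rest. Such an array was found in 10 of them, and chance gives this in about 5% of groups. The share of the whole range taken by the gap to the nearest array was 0.924 in *ctsc*, 0.875 in *hnmt* and 0.872 in *dlx4a*, where replicate 2 was the lowest. It was 0.861 in *cpe*, 0.907 in *pmelb*, 0.943 in *cenpk* and 0.933 in *cdk1*, where replicate 1 was the highest. It was 0.842 in *ifi30a*, where replicate 1 was the lowest, and 0.919 in *myl7* and 0.994 in *plk1*, where replicate 3 was the lowest. The groups of 3 arrays at 48 hpf are too small for this rule.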

How the results depend on the processing

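Under the alternatives tried, named genes kept direction and call in 3153 of their values, lost the call with the direction kept in 131, gained it in 42 and turned in direction in 15. The values that turned were small and below the call, except *her3*, which was -0.083 when the 2 probe sets of the gene were averaged. *smyhc1* was 0.047 after cyclic loess, 0.129 after scaling to ribosomal protein genes and 0.0004 with array weights, and *kdrl* was 0.054, 0.124 and 0.053 under the same settings. *rad21a* was 0.022 after loess and 0.101 after ribosomal scaling, and *opn1sw1* was -0.143 with array weights. Leaving out 1 control array at a time gave -0.045 to 0.013 for *smyhc1*, turned without replicate 3 at 48 hpf, -0.163 to 0.222 for *kdrl*, turned without the same array and without replicate 4 at 24 hpf, and -0.015 to 0.026 for *smc3*, turned without replicate 4 of either age.

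The counts of 635 higher and 518 lower became 323 lower with ribosomal scaling, 369 and 167 with a test against a 2-fold change, 405 and 336 over genes by the brightest probe set, 383 and 306 over genes by the mean of probe sets, 3244 and 3875 without a minimum fold, 1387 and 1685 at 1.5-fold, and 128 and 55 at 4-fold. These follow from how each rule or feature is defined. Ribosomal scaling subtracts a single value from each array and so raised the difference of every probe set by 0.15. Leaving out each control array in turn gave 625 to 676 higher and 419 to 646 lower, with 419 without replicate 3 and 646 without replicate 4 at 48 hpf. The number of probe sets whose change differed from that in morphants was 672 to 1584 over the same omissions, and 491 with array weights, for which the weight estimation had not reached its convergence tolerance; the cause was not tested.

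Nothing in the labels says that replicate numbers pair the samples. Deviations of same-numbered 48 and 24 hpf arrays correlated at 0.13, 0.08 and 0.07, and not every array correlated best with its own number. So few pairs cannot decide whether the numbers pair the samples. With the replicate number as a block, 637 were higher and 562 lower in the 7 control arrays, and 805 changes differed from those in morphants over all 15 arrays.

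Limits are 3 arrays against 4, dim probe sets within the range of background, whole embryos, a relative scale, and replicate 3 at 48 hpf. Among the higher probe sets, 277 had a 24 hpf mean within the background range, and among the lower ones 149 a 48 hpf mean. List medians near 0 (neural progenitors, ear, fin, signalling, germ cells, ribosomal proteins, splicing, chaperones, proteasome and cathepsins) changed sign with scaling to ribosomal protein genes. The heart median of 0.032 kept its sign there (0.184) and changed it after cyclic loess (-0.0065).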

Other observations

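A group of genes mostly outside the lists above was also lower at 48 hpf, and it was drawn up by symbol only after its values were seen, so its counts are a description. Of 62 genes of ribosome biogenesis and the nucleolus, where ribosomal RNA is made and assembled with protein, 20 were at least 2-fold lower at 48 hpf and 0 higher, and 59 were lower by limma's adjusted p alone (median -0.82, against -0.01 over all genes). *imp3*, of the small subunit processome, had 6.94, 6.74 and 6.85 on the 48 hpf arrays, against 8.67, 8.78, 8.64 and 8.80 on the 24 hpf arrays (-1.88). *mrto4*, of large subunit assembly, had 6.72, 6.27 and 6.68 on the 48 hpf arrays, against 8.31, 8.16, 8.38 and 8.39 on the 24 hpf arrays (-1.75), and *nop16* and *mphosph10* fell by 1.73 and 1.59 on the log2 scale. All 48 hpf values lay below all 24 hpf values in these genes. Scaled to ribosomal protein genes, 16 were called lower, with a median of -0.67.

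Other groups drawn up the same way were smaller. Of 13 cathepsin genes 4 fell, *ctsll*, *ctsc*, *ctss2.1* and *ctsba* (-1.33), and 0 rose, while 4 were higher by limma's adjusted p alone. Of 10 LIM homeobox genes 4 rose (median 0.85), of 9 parvalbumins 5 rose (median 1.62), and of 15 keratins 5 rose and 3 fell.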
